A study of Homo sapiens with 12 samples.

Results

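TNFAIP2 and TNFAIP8 are 2 of the 28901 named genes in this RNA-seq experiment, and both were selected on their fold change with LPS in these libraries, among the largest rises. RNA-seq was performed on day 14 adipocytes differentiated from ASC52telo hTERT, a human adipose-derived mesenchymal stem cell line immortalized with telomerase. All cells carried a lentivirus with an shRNA and were sorted for its green marker ZsGreen. The 4 groups of 3 libraries were scramble shRNA (scramble control) and linc-ADAIN shRNA (linc-ADAIN KD), each without LPS and each after 4 h of LPS at 100 ng/mL. linc-ADAIN is a long non-coding RNA of adipocytes, and its own level was not analysed here, so the knockdown could not be checked in these libraries. The study gives its RNA-seq of KD as a single experiment in triplicate, and nothing states that the LPS libraries came from separate cultures, so the errors and p-values below measure only the spread between these libraries, which may be technical.

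LPS, a lipid of the outer wall of certain bacteria, is sensed through TLR4 and its adaptors and activates NF-kB, a transcription factor that raises inflammatory genes. The TNFAIP genes were named as TNF alpha-induced proteins and do not form 1 family. TNFAIP2, also called M-Sec or B94, is related to SEC6, the exocyst subunit encoded by EXOC3, and with the exocyst and the GTPase RalA it helps cells to form tunnelling nanotubes, thin membrane bridges between cells. TNFAIP8 is the founding member of the TIPE family of phosphoinositide-binding proteins and is known to restrain cell death.

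TNFAIP2 (ENSG00000185215.11) lies on the plus strand of chromosome 14 between 103121476 and 103137439 in GENCODE release 44 on GRCh38, with 11 annotated transcripts that begin at 9 start sites. Its canonical transcript has 12 exons and 4683 bases. TNFAIP8 (ENSG00000145779.8) lies on the plus strand of chromosome 5 between 119268692 and 119399688, with 7 transcripts that begin at 7 start sites. Its canonical transcript has 2 exons and 6976 bases. The long non-coding genes LINC00677 and ENSG00000289917 overlap TNFAIP2 on the other strand and RN7SL174P lies within TNFAIP8. They were not analysed here. The table holds counts per gene, so it does not tell which start site was used.

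The sequences before 3 RefSeq start sites are shown because both genes rose with the same stimulus and the stretches can be set beside each other. They are taken from 250 bases before each start (RefSeq, GRCh38.p14, plus strand), and those that run into an annotated exon are shown only up to it. The capitals mark the GC box, GGGCGG on either strand, and neighbouring boxes can share bases. The printed stretches are chr14:103123211-103123436 for TNFAIP2, chr5:119268509-119268691 for the outermost TNFAIP8 start and chr5:119355769-119356018 for the start of the canonical TNFAIP8 transcript.
TNFAIP2: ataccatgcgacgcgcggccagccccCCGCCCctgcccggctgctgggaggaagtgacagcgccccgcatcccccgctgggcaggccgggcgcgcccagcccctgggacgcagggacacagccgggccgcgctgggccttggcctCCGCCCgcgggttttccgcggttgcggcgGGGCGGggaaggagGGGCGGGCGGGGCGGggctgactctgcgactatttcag
TNFAIP8 outermost start: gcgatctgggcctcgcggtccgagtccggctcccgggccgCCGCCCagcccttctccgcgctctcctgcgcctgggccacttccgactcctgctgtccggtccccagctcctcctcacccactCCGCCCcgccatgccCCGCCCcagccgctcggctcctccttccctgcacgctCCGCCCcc
TNFAIP8 canonical start: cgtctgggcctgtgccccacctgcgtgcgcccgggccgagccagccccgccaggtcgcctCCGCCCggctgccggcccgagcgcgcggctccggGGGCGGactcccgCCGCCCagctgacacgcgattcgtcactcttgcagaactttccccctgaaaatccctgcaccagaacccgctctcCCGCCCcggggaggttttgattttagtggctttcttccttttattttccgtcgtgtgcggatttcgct

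The TNFAIP2 stretch held 6 GC boxes, and the TNFAIP8 stretches held 4 each. Over the whole 250 bases the counts were 6 for TNFAIP2, 5 for the outermost TNFAIP8 start and 4 for the canonical one, above 97.8%, 95.9% and 92.4% of 35116 RefSeq promoter windows of 250 bases. At least 1 GC box was present in 42.6% of them. The G and C content over the whole 250 bases was 77.2% for TNFAIP2, 76% for the outermost TNFAIP8 start and 67.2% for the canonical one. That of TNFAIP2 was above 93.2% of promoters, that of the outermost TNFAIP8 start above 91.3% and that of the canonical one above 72.7%. A further TNFAIP8 start, whose window spans chr5:119354523-119354772, stood apart from these with 29.2% G and C, no CpG and no GC box. CACCC, a sequence of KLF sites searched on both strands, was found 2 times at the outermost TNFAIP8 start and in none of the other windows, against 54.7% of promoters with at least 1. No window held the kappa-B consensus, found in 9.96% of promoters, or the AP-1 sequence TGANTCA, found in 6.57%.

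The 3′ ends of the canonical transcripts differed. The sequence ATTTA, the core of AU-rich elements that mark many cytokine mRNAs for decay, occurred 17 times in the 6307 bases after the TNFAIP8 coding sequence and 0 times in the 2079 bases after that of TNFAIP2. Of 19550 canonical transcripts, 67.5% had at least 1. The count in TNFAIP8 was above that of 95.5% of them, whereas its 2.7 per kb were above 69.1%. The longer element TTATTTA followed by A or T at both next positions was in neither gene and in 19.1% of transcripts.

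TNFAIP2 mRNA was at 15.7, 20.5 and 20.6 CPM in scramble control, where CPM are counts per 1e6 counts after TMM scaling. It was at 36.6, 32.6 and 35.2 CPM in linc-ADAIN KD, at 318.5, 509.5 and 422.5 CPM in scramble control with LPS, and at 873.8, 963.6 and 805 CPM in KD with LPS. The means were 18.9 ± 2.79, 34.8 ± 2.04, 417 ± 95.7 and 881 ± 79.5 CPM (SD, n = 3). No group overlapped the next in this order, and the widest spread was in scramble control with LPS. Over all genes, groups did not overlap in the higher direction with KD for 20.1% without LPS and 20% with LPS. The genes were chosen on LPS, so the step from KD to scramble control with LPS is no finding. Its share over all genes was not computed. The values rest on 828 to 1754 counts per library without LPS and 12457 to 44798 with LPS.

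TNFAIP8 mRNA was at 18.2, 24.2 and 17.6 CPM in scramble control and at 46.0, 49.0 and 43.9 CPM in linc-ADAIN KD. With LPS it was at 90.2, 110.3 and 105.3 CPM in scramble control and at 317.5, 302.9 and 324.5 CPM in KD. The means were 20.0 ± 3.66, 46.3 ± 2.56, 102 ± 10.5 and 315 ± 11 CPM (SD, n = 3), in the same order of groups as for TNFAIP2. Again no group overlapped the next, with the same limits as for TNFAIP2. In the LPS comparisons 14.3% of genes in scramble control and 13.6% in KD had groups that did not overlap in the higher direction. TNFAIP8 rested on 818 to 2640 counts per library without LPS and 3341 to 14083 with LPS.

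**Figure D1:**
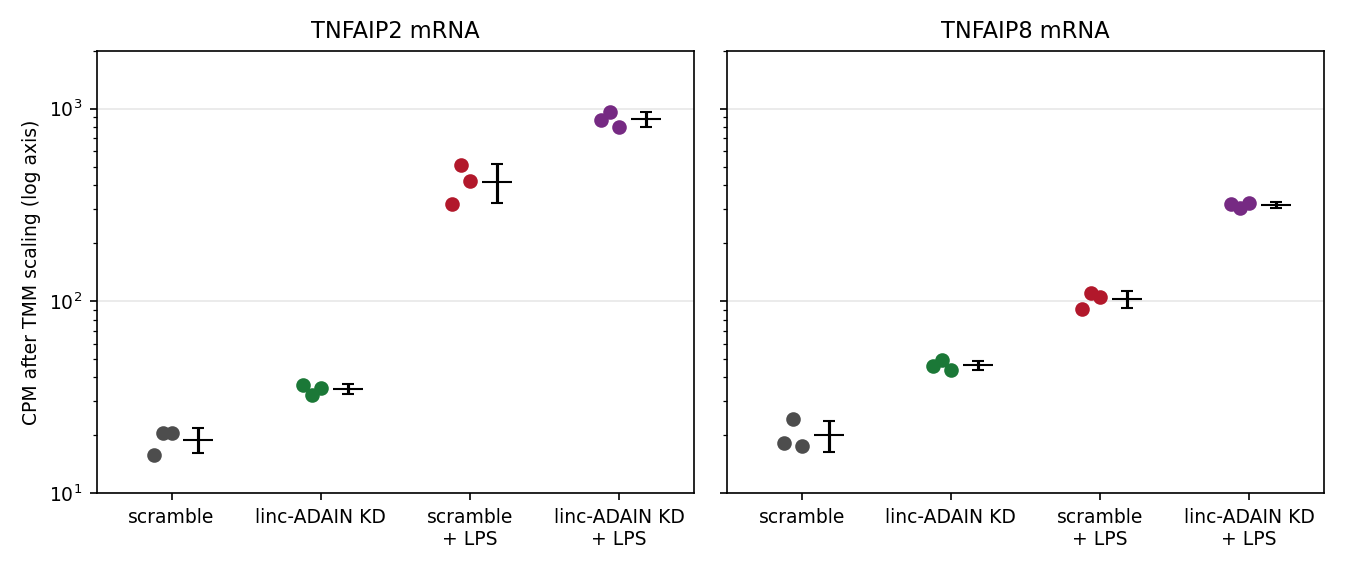
CPM of TNFAIP2 and TNFAIP8 in each of the 12 libraries on a log axis; coloured points are libraries, and the black bar beside them is the mean with its SD (n = 3). Without LPS both genes sit between 15.7 and 49.0 CPM, and with LPS the KD libraries lie above the scramble libraries for each gene.

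The levels of the 2 genes were close without LPS and apart with it. Per kb of the canonical transcript, TNFAIP2 was at 4.04 ± 0.596 CPM and TNFAIP8 at 2.86 ± 0.524 CPM in scramble control. With LPS these became 89 ± 20.4 and 14.6 ± 1.5 CPM per kb. In KD with LPS they were 188 ± 17 and 45.2 ± 1.58 CPM per kb, where TNFAIP2 was above 99% of 28634 genes and TNFAIP8 above 95.4%. The ratio of TNFAIP2 to TNFAIP8 counts was 0.847 to 1.17 in the scramble libraries, 0.664 to 0.8 in KD, 3.53 to 4.62 in scramble with LPS and 2.48 to 3.18 in KD with LPS. In this ratio each KD library lay below each scramble library of the same treatment.

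LPS raised TNFAIP2 by a log2 fold change of 4.47 (standard error 0.175) in scramble control and 4.66 (0.0907) in KD, which are 22.2-fold and 25.3-fold. TNFAIP8 rose by 2.36 (0.128) and 2.77 (0.0802), which are 5.14-fold and 6.8-fold. These values chose the genes, so they are given as a description with no test. For scale, 1.4% of 15920 genes were at least 2-fold higher with LPS in scramble control at an adjusted p under 0.05, and 1.3% of 16169 in KD. Among genes averaging 50 counts per library or more in the comparison, TNFAIP2 was number 4 of 11695 by fold change in scramble control and number 6 of 11807 in KD. TNFAIP8 was number 27 in both.

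**Figure D2:**
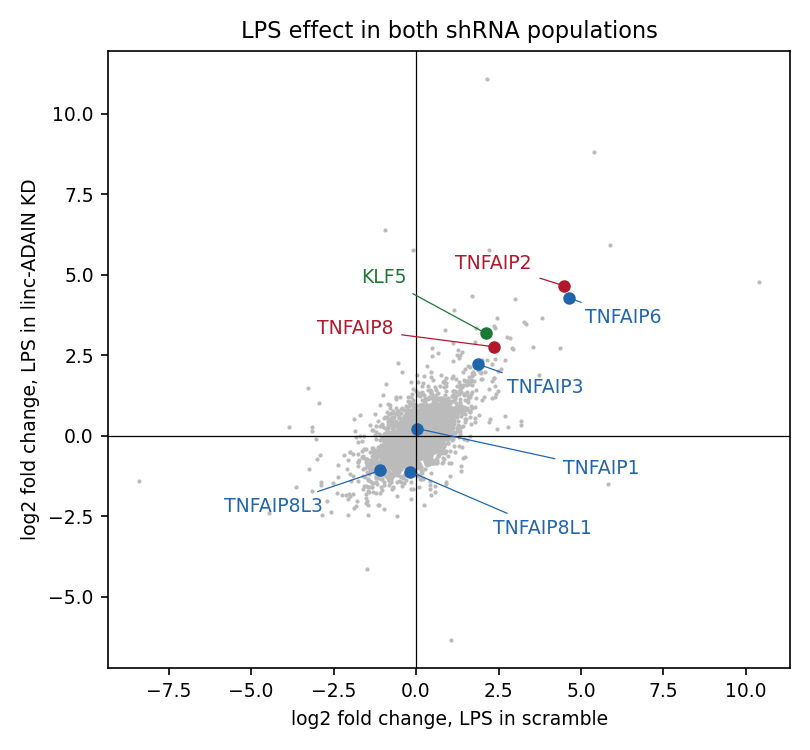
Log2 fold change with LPS in scramble control (horizontal axis) and in linc-ADAIN KD (vertical axis); grey points are genes averaging 50 counts or more over the 12 libraries and the genes of the lists used here, and the named genes are coloured. TNFAIP2 and TNFAIP6 lie together near the upper right, and TNFAIP8L3 lies on the opposite side with -1.09 and -1.08.

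linc-ADAIN KD raised both genes, with and without LPS. This comparison was not used to choose them and was tested in edgeR with the quasi-likelihood F test over all genes (Benjamini-Hochberg adjustment). It shares its libraries with the comparisons that chose them. Without LPS, TNFAIP2 rose by 0.88 on the log2 scale (standard error 0.12, adjusted p = 0.00019), or 1.84-fold, and TNFAIP8 by 1.22 (0.124, adjusted p = 1.9e-05), or 2.32-fold. With LPS, TNFAIP2 rose by 1.08 (0.133, adjusted p = 3.6e-05), or 2.11-fold, and TNFAIP8 by 1.63 (0.0868, adjusted p = 1.3e-08), or 3.09-fold. In each case the lowest KD library was above the highest scramble library.

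A rise with KD was common among all genes. At an adjusted p under 0.05, 12.1% of genes tested were higher in KD without LPS and 12.7% with LPS, and groups did not overlap in the higher direction for 20.1% and 20% of genes. By fold change TNFAIP8 was number 415 of 11872 genes without LPS and number 289 of 11709 with LPS, and TNFAIP2 was number 732 and number 569. In each of these orders TNFAIP8 stood ahead of TNFAIP2, the reverse of their order under LPS.

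The effect of KD was somewhat larger with LPS than without it in the point estimates of both genes. The difference on the log2 scale was 0.20 (standard error 0.191) for TNFAIP2 and 0.42 (0.15) for TNFAIP8. It is also the difference of the LPS effects, so it is given with no test. With a library left out in turn it was 0.043 to 0.37 for TNFAIP2 and 0.26 to 0.50 for TNFAIP8. The extremes for TNFAIP2 came without library 1 and without library 2 of scramble with LPS, and without scramble library 1 it was 0.32. The lowest value for TNFAIP8 came without scramble library 2, the highest of its group.

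Markers of cell types moved with the KD. At an adjusted p under 0.05, 7 of 10 adipocyte markers were lower in KD without LPS and 8 of 10 with LPS, where 15.1% and 14.2% of all genes were lower. Their summed level was 3200 to 4427 CPM in the scramble libraries and 642 to 1880 CPM in the KD libraries, and with LPS it was 3702 to 4288 and 519 to 1206 CPM. FABP4, a fatty acid carrier of mature adipocytes, was the highest of them and was detected in all 12 libraries. The 8 stromal and preadipocyte markers summed to 2987 to 3062 CPM in scramble control and 2287 to 2341 CPM in KD, and with LPS to 2707 to 2912 and 2034 to 2240 CPM. The sum hides opposite moves. In KD 2 of the 7 tested were higher and 3 lower, both without and with LPS, where 12.1% and 12.7% of all genes were higher. The higher ones were DPP4 and PDGFRA without LPS and DPP4 and NT5E with LPS. The lower ones were ENG, PDGFRB and THY1 in both. DPP4, a surface peptidase of early progenitors, rose by 2.08 on the log2 scale without LPS (adjusted p = 1.5e-07) and 2.40 with LPS (adjusted p = 3.5e-09), whereas THY1, a stromal surface protein, had -2.37 (adjusted p = 8.2e-08) and -2.53 (adjusted p = 3.8e-10). In bulk RNA, fewer cells of a type and less RNA per cell cannot be told apart.

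Of 9 macrophage and leukocyte markers, AIF1 and TYROBP were at 0 counts in every library. The sum of the list was 59.0 to 62.5 CPM in scramble control and 89.6 to 121 CPM in KD, and with LPS it was 61.8 to 74.6 and 82.1 to 110 CPM. CD68, a lysosomal protein, had a mean of 53.6 CPM in scramble control against 31.1 CPM in KD, whereas CD163, a scavenger receptor, had 4.33 against 68.6 CPM. CD163 rose with KD by 3.99 on the log2 scale without LPS (standard error 0.196, adjusted p = 9.8e-08) and by 4.11 with LPS (0.179, adjusted p = 2.6e-09). These 2 genes lead their list, and CD163, like DPP4, THY1 and KDR, was singled out after its values were seen. The 7 endothelial markers, with CLDN5 at 0 counts, summed to at most 27.2 CPM in any library, with 23.6 to 27.2 CPM in scramble control and 11.9 to 12.5 CPM in KD. With LPS they summed to 15.6 to 17.2 and 8.63 to 13.3 CPM. Without LPS 2 of 5 tested were lower in KD and 0 higher, with 0 higher at an unadjusted p under 0.05 and 0 by DESeq2. With LPS 3 were lower and 1, KDR, was higher (adjusted p = 3.4e-05). KDR had a count of 2 to 6 in the scramble libraries with LPS against 94 to 120 in the KD libraries with LPS. The shares over all genes were 15.1% and 14.2% lower and 12.1% and 12.7% higher in KD, without and with LPS. The part of these markers in the rise of TNFAIP2 and TNFAIP8 with KD was not tested.

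The other genes with a TNFAIP name did not move as 1 group. TNFAIP6 encodes TSG-6, a secreted protein that binds hyaluronan. Its mean level went from 9.47 ± 1.24 to 232 ± 14 CPM with LPS in scramble control and from 42.3 ± 5.98 to 825 ± 122 CPM in KD (SD, n = 3). LPS raised it by 4.63 and 4.29 on the log2 scale. KD raised it by 2.16 without LPS (standard error 0.138, adjusted p = 4.9e-07) and by 1.83 with LPS (0.1, adjusted p = 1.6e-08). Both changes with KD are larger point estimates than those of TNFAIP2 and TNFAIP8.

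TNFAIP3 encodes A20, an enzyme that edits ubiquitin chains and limits NF-kB signalling. LPS raised it from 95.8 ± 8.41 to 347 ± 34.5 CPM in scramble control and from 85.6 ± 6.85 to 401 ± 16.7 CPM in KD. KD gave a log2 difference of -0.16 without LPS (adjusted p = 0.23) and 0.21 with LPS (adjusted p = 0.08), neither past the threshold. The second passed in DESeq2 (adjusted p = 0.039), with library size only (adjusted p = 0.018) and without library 2 of scramble with LPS (adjusted p = 0.035). TNFAIP1, an adaptor of a ubiquitin ligase, was at 34.1 to 48.2 CPM in all libraries. KD raised it with LPS by 0.37 (adjusted p = 0.009), whereas the difference of 0.17 without LPS (adjusted p = 0.17) and the effects of LPS did not pass the test. With library size only, the value without LPS was 0.27 (adjusted p = 0.036).

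Within the TIPE family, TNFAIP8 was chosen for its rise with LPS, so its place as the member that rose is no finding. Of the others, TNFAIP8L3 had the highest level, and TNFAIP8L1 and TNFAIP8L2 were low or absent. TNFAIP8L3, which transfers phosphoinositides, fell with LPS by 1.09 on the log2 scale in scramble control (adjusted p = 0.00037) and by 1.08 in KD (adjusted p = 9.1e-06). Its mean levels were 33.2 ± 5.38 CPM in scramble control, 15.4 ± 2.63 CPM with LPS, 56.9 ± 5.53 CPM in KD and 27.0 ± 2.23 CPM in KD with LPS (SD, n = 3). KD raised it by 0.78 without LPS (adjusted p = 0.0004) and by 0.80 with LPS (adjusted p = 0.00066), so it rose with KD as TNFAIP8 did. TNFAIP8L1 was at 0.905 to 3.53 CPM with no call. TNFAIP8L2, known from immune cells, was at 0 counts in all 12 libraries.

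For the 5 other TNFAIP-named genes tested, edgeR called 0 differences between the KD effects with and without LPS. Their adjusted p-values were 0.2 to 1, and 1 had an unadjusted p under 0.05. Over all genes, 1.28% passed this test.

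**Figure D3:**
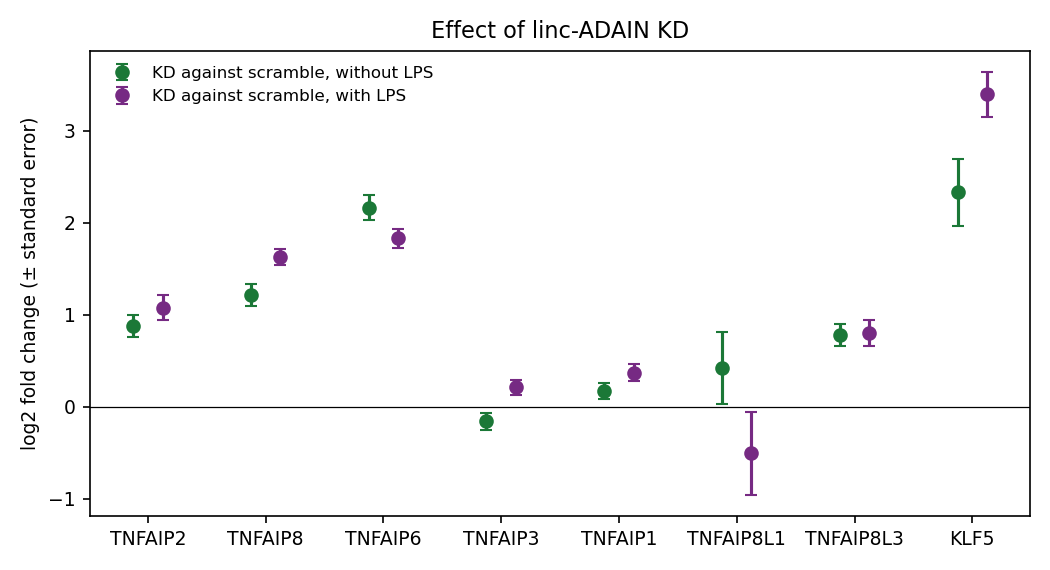
Log2 fold change of linc-ADAIN KD against scramble control, without LPS (green) and with LPS (purple), with its standard error from edgeR, for TNFAIP2, TNFAIP8, the 5 other TNFAIP-named genes tested and KLF5. TNFAIP2, TNFAIP8, TNFAIP6, TNFAIP8L3 and KLF5 lie above 0 in both comparisons, and TNFAIP3 lies on both sides of it, at -0.16 and 0.21.

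Of the relatives and partners of TNFAIP2, few were called. EXOC3, the SEC6 subunit of the exocyst, was at 24 to 31.4 CPM in all 12 libraries, with a KD difference of -0.13 without LPS (adjusted p = 0.42) and -0.10 with LPS (adjusted p = 0.63). Its relatives EXOC3L1, EXOC3L2 and EXOC3L4 had between 0 and 17 counts in any library. Of 12 exocyst and Ral genes, edgeR called 0 in KD without LPS, with 2 at an unadjusted p under 0.05 and 0 by DESeq2. With LPS, EXOC1 (0.39, adjusted p = 0.013) and EXOC5 (0.32, adjusted p = 0.04) were higher and EXOC6B (-0.39, adjusted p = 0.013) lower in KD, where 12.7% of all genes were higher and 14.2% lower. The call of EXOC5 was lost without library 2 or 3 of scramble with LPS or any KD library with LPS, that of EXOC1 without KD library 1 or 3 with LPS, and that of EXOC6B without library 3 of either group. EXOC8 rose with LPS by 0.47 in scramble control (adjusted p = 0.027) and 0.64 in KD (adjusted p = 0.0051), and the former call was lost without library 1 or 2 of scramble or library 2 or 3 of scramble with LPS. So in each LPS comparison 1 was higher and 0 were lower, with 2 and 1 lower at an unadjusted p under 0.05 and 2 and 0 lower by DESeq2. Over all genes, 5.9% and 5.32% were higher with LPS. These 4 genes are named because they are the called ones. CDC42, a GTPase that shapes actin, and EXOC7 were the highest of the list at means of 223 and 70.6 CPM over all libraries. Neither was called by edgeR. They were the 2 lower at an unadjusted p under 0.05 with LPS in scramble control. Their log2 fold changes were -0.19 (adjusted p = 0.096) and -0.20 (adjusted p = 0.082).

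A list of 21 NF-kB target genes, without TNFAIP2 and TNFAIP8, was higher with LPS in each member in scramble control and in KD. The medians were 1.73 and 2 on the log2 scale, against 0.02 and 0.0099 over all genes and 5.9% and 5.32% of genes called higher. The list was chosen with earlier results of these data known, so its counts and medians are descriptions. With KD, 13 of the 21 were higher without LPS and 17 with LPS, against 12.1% and 12.7% of all genes. Their median was 0.64 without LPS and 0.74 with LPS, and none was lower at an adjusted or unadjusted p under 0.05 in edgeR or at an adjusted p under 0.05 in DESeq2. The KD effects of TNFAIP2 and TNFAIP8 were above these KD medians without and with LPS, but not above every gene of the list. Among its 4 most abundant genes, CXCL8, which encodes IL-8, had larger KD effects than both, at 1.63 and 1.79. PTX3 (0.24 and 0.51) and CCL2 (-0.15 and 1.00) had smaller ones. PTX3, a secreted pattern recognition protein and the most abundant mRNA of the list, rose with LPS by 0.82 (adjusted p = 0.00061) in scramble control and 1.09 (adjusted p = 1.7e-09) in KD.

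In this list the KD effect differed with LPS, by edgeR's interaction test, for 3 of the 21 genes, against 1.28% of all genes. These 3 are named because they were called. The KD effect was larger with LPS for the cytokine IL6, by 1.17 on the log2 scale (standard error 0.128, adjusted p = 0.00014). For the chemokine CCL2 it was larger by 1.15 (0.228, adjusted p = 0.016), a call lost without scramble library 2 (adjusted p = 0.057). The KD effect was smaller with LPS for SOD2, with a difference of -0.81 (0.112, adjusted p = 0.00099). SOD2 is the mitochondrial superoxide dismutase and the next most abundant of the list after PTX3. KD raised SOD2 by 1.19 without LPS (standard error 0.0899, adjusted p = 1.8e-06) and by 0.37 with LPS (0.0617, adjusted p = 0.00049). Its mean levels were 900 ± 94.5, 2048 ± 158, 4640 ± 257 and 6003 ± 190 CPM in scramble, KD, scramble with LPS and KD with LPS (SD, n = 3).

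Of 14 genes of the LPS and TNF receptors and their adaptors, 1 was higher and 1 lower in KD without LPS, and 3 were higher and 2 lower with LPS, where 12.1% and 12.7% of all genes were higher and 15.1% and 14.2% lower. TNFRSF1A, the main TNF receptor and the most abundant of the list, fell with KD by 0.98 on the log2 scale without LPS (adjusted p = 5.4e-06) and by 1.21 with LPS (adjusted p = 3.9e-07). TNFRSF1B, the other TNF receptor, went the opposite way, by 1.19 (adjusted p = 1.5e-05) and 1.30 (adjusted p = 3.1e-05). With LPS, TLR4, the LPS receptor, was higher in KD by 1.03 (adjusted p = 0.00062), and its co-receptor CD14 by 2.69 (adjusted p = 0.0014). CD14 rested on a count of 9 to 15 in the scramble libraries against 63 to 89 in the KD libraries. Without LPS the KD effect was -0.06 for TLR4 (adjusted p = 0.8) and 0.68 for CD14 (adjusted p = 0.22). LPS lowered both in scramble control, with -0.84 (adjusted p = 0.0045) and -1.85 (adjusted p = 0.026). Neither was called with LPS in KD, at 0.23 (adjusted p = 0.43) and 0.15 (adjusted p = 0.89). TNFRSF1B, TLR4 and CD14 were singled out after their values were seen. With LPS in scramble control 4 of the 14 were lower and 0 higher, with 2 higher at an unadjusted p under 0.05 and 0 by DESeq2. For LPS in KD 1 was lower and 0 higher, with 0 higher at an unadjusted p under 0.05 and 0 by DESeq2. Over all genes, 8.38% and 6.03% were lower with LPS.

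Among 12 genes of death receptor signalling, the process that TNFAIP8 is known to restrain, 4 were higher with LPS in scramble control, and 4 were higher and 1 lower in KD, against 5.9% and 5.32% of all genes higher. CFLAR, an inhibitor of caspase-8 activation, rose with LPS by 1.22 (adjusted p = 2.8e-06) and 1.24 (adjusted p = 1.9e-08). BIRC2, a ubiquitin ligase that blocks cell death at the TNF receptor, rose by 0.47 (adjusted p = 0.008) and 0.68 (adjusted p = 0.00013). With KD, 2 of the 12 were higher without LPS, and 4 were higher and 2 lower with LPS, against 12.1% and 12.7% of all genes higher and 14.2% lower with LPS, so the count without LPS is near the share over all genes. BIRC2 was higher in both, by 0.52 (adjusted p = 0.0015) and 0.74 (adjusted p = 5.1e-05).

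KLF5, a transcription factor that the study follows and that is known to bind the TNFAIP2 promoter in breast cancer cells, was at low levels. It was at 0.588 to 0.856 CPM in scramble control, 1.92 to 4.64 CPM in scramble with LPS, 2.22 to 4.84 CPM in KD and 29.4 to 35.4 CPM in KD with LPS. LPS raised it by 2.13 on the log2 scale in scramble control (standard error 0.383, adjusted p = 0.0031) and by 3.18 in KD (0.217, adjusted p = 1.4e-07). KD raised it by 2.33 without LPS (0.364, adjusted p = 0.0005) and by 3.40 with LPS (0.244, adjusted p = 2.1e-07). The difference between these KD effects was 1.07 (0.419, adjusted p = 0.31) and did not pass the test. KLF5 in scramble with LPS overlapped KLF5 in KD without LPS, on 75 to 198 and 77 to 261 counts per library. TNFAIP2 and TNFAIP8 did not overlap in these groups, but they were chosen for their rise with LPS, so this contrast is no finding.

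The genes whose log2 CPM followed TNFAIP2 most closely over the 12 libraries, by Pearson's r among 11810 genes averaging 50 counts or more, were CCL20 (0.9954), SLC39A14 (0.9950), NFKB2 (0.9944), MARCHF3 (0.9928) and IFNGR2 (0.9892). Those closest to TNFAIP8 were CXCL3 (0.9918), CXCL1 (0.9916), IRF1 (0.9911), WTAP (0.9909) and NFKBIZ (0.9907). The lists share no gene. TNFAIP8 was number 56 for TNFAIP2 and TNFAIP2 number 58 for TNFAIP8, with an r of 0.9530. The 12 libraries fall into 4 groups that all genes share, so these values are descriptions.

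CCL20, a chemokine for cells with CCR6, went from 20.3 to 285 CPM with LPS in scramble control and from 36.1 to 451 CPM in KD, group means that run in the same order as those of TNFAIP2. CXCL3, a chemokine for neutrophils, went from 35.9 to 110 CPM and from 67.9 to 298 CPM, in the order of those of TNFAIP8.

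Genes around TNFAIP2 and TNFAIP8 were lower or not called with KD. Of 13 genes within 500 kb of TNFAIP2 with at least 10 counts over the 12 libraries, 8 of 11 tested were lower in KD without LPS and 5 of 12 with LPS, and edgeR called none higher, at an adjusted or unadjusted p under 0.05. DESeq2 called none higher either. Over all genes, 15.1% and 14.2% were lower. With LPS, edgeR called RCOR1 lower and 0 higher in scramble control, with 1 higher at an unadjusted p under 0.05 and 0 by DESeq2. RCOR1 was 1 of 12 tested, and 8.38% of all genes were lower in that comparison. For LPS against no LPS in KD, none of the 13 was called, with 1 higher and 2 lower at an unadjusted p under 0.05 and none by DESeq2. The nearest genes on either side, EXOC3L4 at 10917 bases and the pseudogene NDUFB4P11 at 2236 bases, had 29 and 21 counts in all. The next, CDC42BPB, a kinase downstream of CDC42, was 63927 bases to the left. KD lowered it, with log2 fold changes of -0.45 (adjusted p = 0.0053) and -0.49 with LPS (adjusted p = 0.0006). EIF5, a translation initiation factor 196105 bases to the right, had -0.65 (adjusted p = 5e-05) and -0.45 (adjusted p = 0.00021).

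Of 5 genes within 500 kb of TNFAIP8, 4 were tested in KD without LPS and 5 with LPS, and HSD17B4 alone was called in both. In either direction 27.2% and 26.9% of all genes were called, so this count is near the share over all genes. HSD17B4, a peroxisomal enzyme of fatty acid oxidation, lies 52777 bases to the right. Its mean was 210 ± 25.2 CPM without and 96.2 ± 2.62 CPM with KD (SD, n = 3). The log2 fold change was -1.13 without LPS (standard error 0.0931, adjusted p = 3.6e-06) and -1.27 with LPS (0.101, adjusted p = 6.1e-07). This is the opposite direction to TNFAIP8. On the left, DMXL1, a subunit of a complex that assembles the proton pump of acidic organelles, lies 19554 bases away. LPS gave it a log2 fold change of 0.28 in scramble control (adjusted p = 0.041), a call that was lost without scramble library 1, 2 or 3 or without library 1 or 3 of scramble with LPS, and with library size only (adjusted p = 0.076). DMXL1 was the 1 called of 4 tested for LPS in scramble control, where 5.9% of all genes were higher. For LPS against no LPS in KD, edgeR called 0 of the 5, with 0 at an unadjusted p under 0.05 and 0 by DESeq2.

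**Figure D4:**
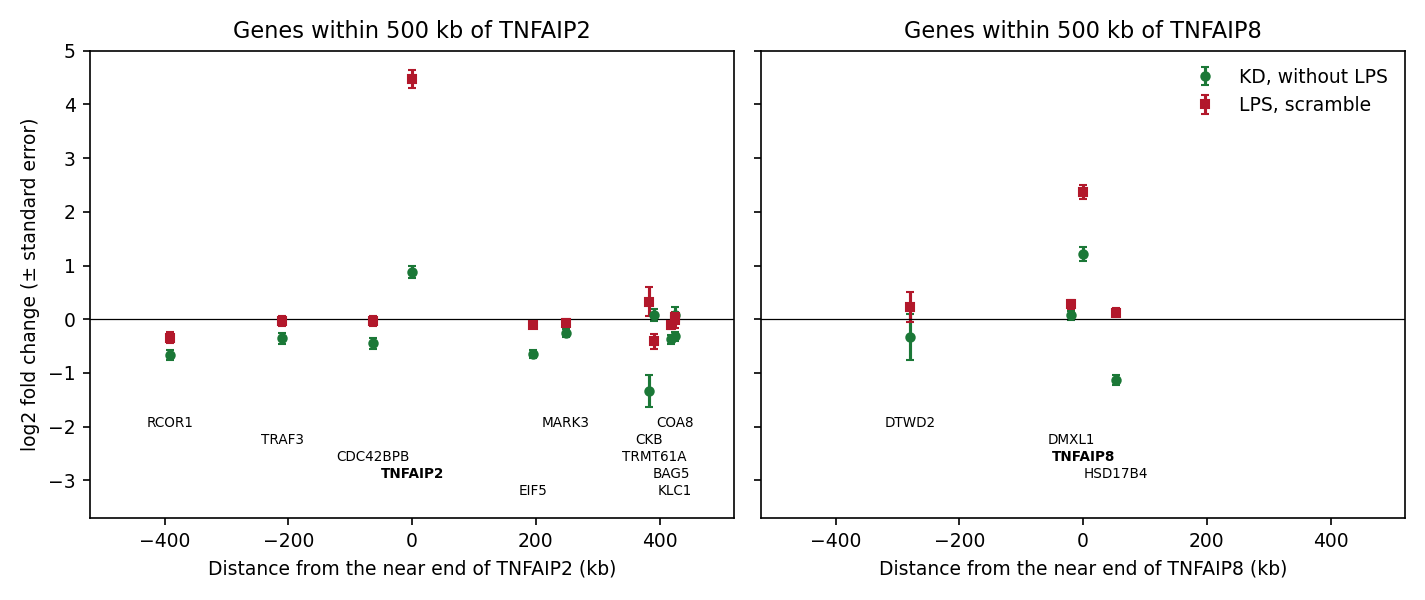
Log2 fold change with its standard error for genes within 500 kb of TNFAIP2 and of TNFAIP8 that averaged 50 counts per library or more, against their distance from the near end of the gene, for KD without LPS (green circles) and LPS in scramble control (red squares). TNFAIP2 at 4.47 and TNFAIP8 at 2.36 were chosen for their rise with LPS, so their distance from the neighbours in the red squares is no finding. EIF5 and HSD17B4 lie below 0 with KD.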

How the data were processed

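The 12 libraries were polyA RNA-seq with a stranded mRNA kit, with 3 libraries in each of 4 groups taken from the sample labels. Per the submitters' processing notes, bcl2fastq 2.19, kallisto 0.44.0 (GRCh38) and DESeq2 1.32.0 were used. The authors deposited kallisto's estimated counts summed per gene name, with no scaling for depth or length. The annotation release and strand setting are not given in the sources used here. A row without a gene name (0.235% to 0.306% of counts) was left out. Named genes had 28.4 to 53.8 (in units of 1e6) counts per library, and a gene with few counts is limited by this depth.

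Here, in R 4.3.3, counts were rounded, genes with fewer than 10 counts in a fit were dropped, and edgeR 4.0.16 (TMM, quasi-likelihood F test, Benjamini-Hochberg) was fitted to the 6 libraries of each of 4 comparisons, or to all 12 for the difference of KD effects. The standard error is the log2 fold change divided by the square root of F. CPM used 1 TMM scaling over 12 libraries. An exact two-sided permutation test of 3 libraries against 3 cannot go below 0.1. Libraries of a group correlated at 0.977 to 0.99 (log2 CPM), and none was a copy of another. The fits were also run on simulated counts with the same dispersion for all genes and few changed genes. That setting is simpler than these libraries, and its outcome is not used here.

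TNFAIP2, TNFAIP8 and the gene lists were chosen with earlier results of these data known. Named were these genes, all TNFAIP-named, TIPE and SEC6-related genes, KLF5, of each other list up to 4 of the most abundant genes, the tested genes within 500 kb by counts with the nearest on each side, and the 5 genes most like each in pattern. Positions are from GENCODE release 44, which holds 28647 of the 28901 gene names. Alternatives were DESeq2 1.42.0, other scalings and filters, a fit on 12 libraries, omission of single libraries, and replicate number as a blocking term.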

Additional observations from a re-analysis of the deposited data

Results flagged for a closer look

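The KD effect differed with LPS for 4 named genes by edgeR's interaction test over 17173 genes, of which 1.28% passed. The difference, with LPS minus without on the log2 scale, was -0.81 for SOD2 (standard error 0.112, adjusted p = 0.00099), 1.17 for IL6 (0.128, adjusted p = 0.00014), 1.15 for CCL2 (0.228, adjusted p = 0.016) and 1.09 for TLR4 (0.24, adjusted p = 0.03). With each library left out in turn it was -0.90 to -0.76, 1.08 to 1.25, 1.00 to 1.38 and 0.96 to 1.23. The call of CCL2 was lost without scramble library 2 (adjusted p = 0.057). That of TLR4 was lost without library 1 or 2 of scramble, 2 or 3 of scramble with LPS, 1 or 2 of KD, or 2 or 3 of KD with LPS, with adjusted p-values of 0.064 to 0.095.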

How the results depend on the processing

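The KD effects on TNFAIP2 and TNFAIP8 kept their direction and an adjusted p under 0.05 in every alternative run. With a library left out in turn they were 0.76 to 0.94 and 1.12 to 1.38 on the log2 scale without LPS, and 0.92 to 1.25 and 1.55 to 1.69 with LPS. TNFAIP2 without LPS stayed under a 2-fold difference in all of them. The LPS effect on TNFAIP8 in scramble control was 2.28 to 2.53 and its difference of KD effects 0.26 to 0.50, both extremes farthest from the reported value without scramble library 2. The count of genes called with LPS in scramble control was 2274 and 1187 to 2106 with a library left out. It was 1187 without scramble library 2, of which 1171 were among the 2274, and 1461 without LPS library 3.

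Whether the replicate numbers pair the samples was not settled. Deviations of libraries with the same number correlated at -0.14 to 0.25 between groups, and libraries with different numbers were not compared. Between scramble and scramble with LPS all values were positive, at 0.055 to 0.25. With the number as a block the KD effects were 0.89 and 1.10 for TNFAIP2 and 1.23 and 1.63 for TNFAIP8. The counts of genes called were then 3857 and 4636 for KD without and with LPS, against 4411 and 4292 without the block. For LPS in scramble and in KD they were 3260 and 2238, against 2274 and 1835. Of the lists, the LPS and TNF receptor genes called with LPS in KD went from 1 to 3 with the block or without a filter on low counts, to 2 with library size only, DESeq2 or filterByExpr, and to 0 to 3 with a library left out. In scramble control they went from 4 to between 1 and 4 with a library left out. The exocyst and Ral genes called with LPS in scramble control went from 1 to 3 with library size only or DESeq2, to 2 in the fit on 12 libraries and to 0 to 1 with a library left out. With KD they went from 0 to 1 without LPS with library size only and to 0 to 1 with a library left out, and with LPS from 3 to 4 with library size only and to between 0 and 3 with a library left out. The LPS effect of TNFAIP1 in scramble control turned to -0.0029 with library size only, that of TNFAIP8L1 was -0.44 to 0.20 with a library left out, and the difference of KD effects of TNFAIP8L3 was -0.12 to 0.16. None of these passed the test. The cause was not tested.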
